A study of Sus scrofa with 16 samples.

Results

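Tyrosine and tryptophan breakdown was followed through 9 liver genes. TAT, HPD, HGD and FAH encode the steps that take tyrosine to fumarate and acetoacetate, and TDO2, AFMID, KMO, KYNU and HAAO encode the kynurenine route of tryptophan. The genes were chosen by name, as the identifiers in the count tables whose annotated pig symbol was one of these 9. This gave 9 of 25880 gene identifiers, of which 14857 had a symbol.

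The liver is the main site of both routes. TAT, long known as a glucocorticoid and glucagon responsive enzyme, commits tyrosine to oxidation. TDO2 opens the ring of tryptophan and controls how much of it enters the kynurenine route, which ends in full oxidation or in the synthesis of NAD. Both TAT and TDO2 are classic markers of a differentiated, fasting-responsive hepatocyte.

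The livers came from 16 crossbred pigs, offspring of sows crossed from Polish Landrace and Polish Large White and boars crossed from Duroc and Pietrain, fattened from about 60 to 118 kg of body weight in individual pens. Diets of similar energy and protein content differed in the added fat. Rapeseed oil (group R) was fed to 5 pigs (3 gilts and 2 barrows), beef tallow (group B) to 5 (2 gilts and 3 barrows) and coconut oil (group C) to 6 (3 gilts and 3 barrows). There was no group without an added fat, so every difference is between fats. Each pig gave 1 library read from the 3′ ends of mRNA. In such libraries a transcript gives reads near its end only, so values were not divided by gene length, and between genes only numbers of reads are compared.

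Between 705669 and 1767671 reads per pig fell on annotated genes, with a median of 1018321.5. A further 15.9 to 30.1% of the reads of a pig fell outside annotated genes and 15.4 to 38.1% aligned to several places, and neither kind was counted on a gene. Levels are counts per 1000000 reads on the 6891 genes tested over all diets (CPM), normalized by TMM over the 16 pigs. Hepatocyte markers summed to 67855 to 192509 CPM over 8 genes, of which SERPINA1 had only 7 reads in all, and adipocyte markers to 2.59 to 20.7 CPM over 5 genes, of which LEP was at 0 in all 16 pigs. One liver, beef tallow replicate 3, stood apart, with a score of 59.0 on the first principal component (19.3% of the variance) against 17.6 for the next highest pig. It held the highest or lowest value of 32.9% of these 6891 genes, against 7.04 to 18.7% for the other pigs.

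All 9 genes passed the low-count filter in every comparison. Together they took 2554 to 5458 reads per pig, which was 0.232 to 0.438% of the reads on genes. TAT gave the most reads, 16490 over the 16 pigs, and KYNU the fewest, 540. TDO2 had 14097 reads and HAAO 10607, while KMO, FAH, AFMID, HPD and HGD lay between 1294 and 5989. The positions below are those of the same-named genes in the RefSeq annotation of Sscrofa11.1, matched by symbol, since the table holds none of these Ensembl identifiers.

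None of the 9 genes differed between any pair of diets at an edgeR adjusted p under 0.05. Between rapeseed oil and beef tallow, 0 of 9 passed, where 1.11% of the 6318 genes tested did. Between rapeseed oil and coconut oil, 0 of 9 passed against 0.138% of 6528, and between beef tallow and coconut oil 0 of 9 against 0.0587% of 6812. DESeq2 also called 0 of 9 in each pair. At an unadjusted p under 0.05, edgeR and DESeq2 each counted 1 gene (HAAO), 2 genes (KMO and TDO2) and 4 genes (AFMID, HPD, HAAO and KMO) in these 3 pairs, where edgeR's shares over all genes were 15%, 13% and 11.5%. In no pair did the CPM of any of the 9 genes separate the diets without overlap, which 4.57%, 1.46% and 1.45% of all genes did. At this number of pigs and reads, simulated 2-fold changes were recovered in 42%, 62% and 49% of genes in the 3 pairs. A change of that size or smaller could therefore be missed. The changed genes were drawn at random from all genes tested. Recovery was not computed for genes with a wide spread between pigs, such as AFMID, TAT and HGD.

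**Figure D1:**
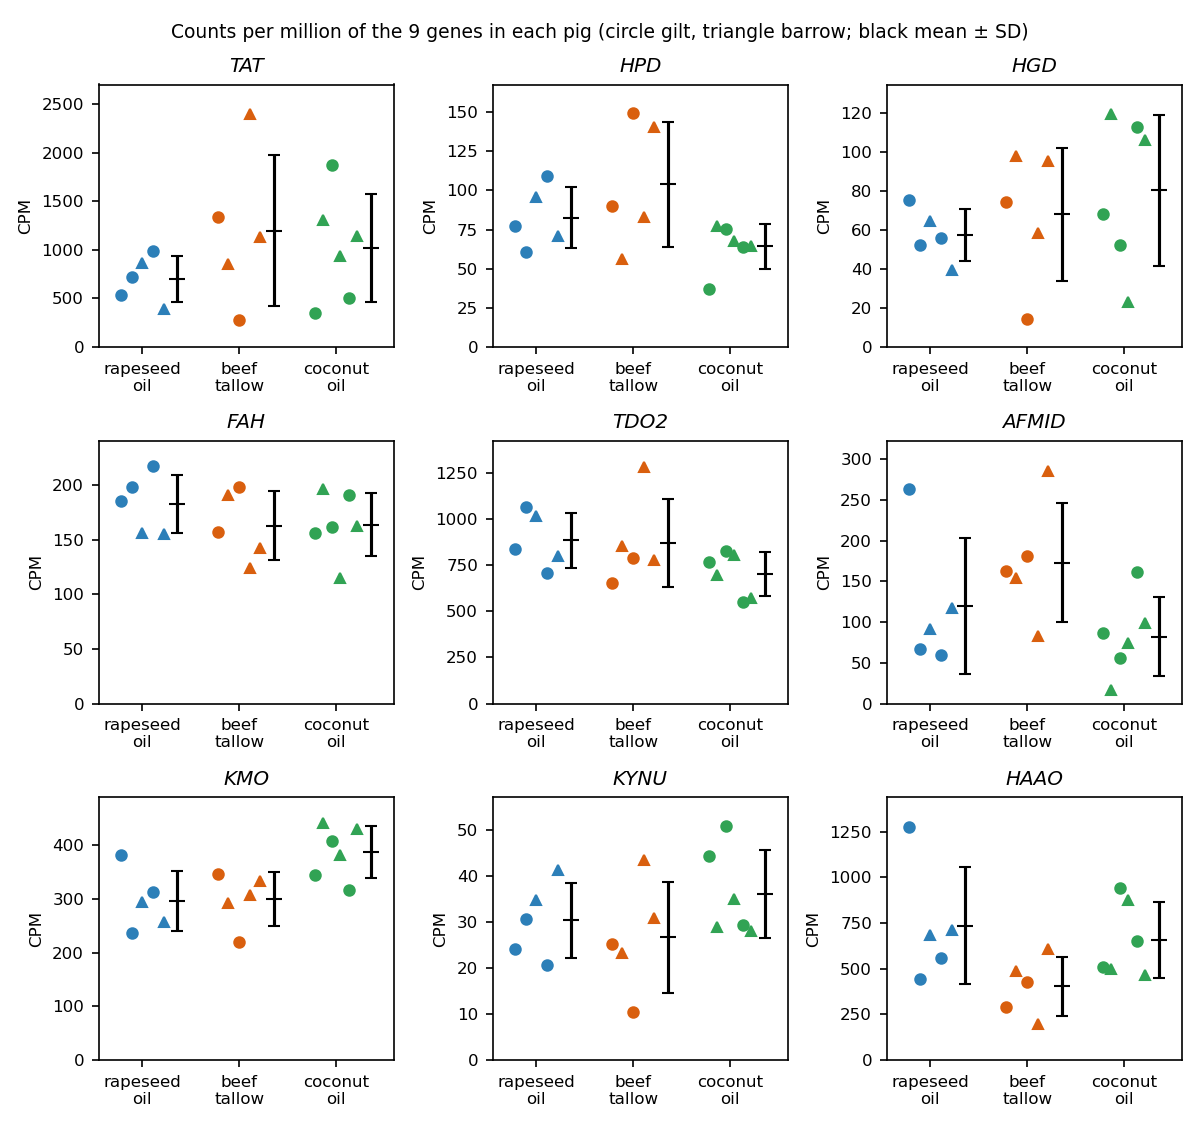
Level of each gene (CPM, vertical axis) in every pig by diet (horizontal axis), with gilts as circles, barrows as triangles and the mean ± SD of each diet in black. The diets overlap in all 9 panels, HPD and AFMID sit lowest with coconut oil, KMO highest with coconut oil and HAAO lowest with beef tallow.

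TAT transaminates tyrosine to hydroxyphenylpyruvate and gave the most reads of the 9 (ENSSSCG00000002736, chromosome 6, 14571311 to 14583203). TAT was measured at 536, 719, 862, 986 and 393 CPM in the 5 rapeseed oil pigs (mean 699 ± 239.5, SD, n = 5). With beef tallow, TAT stood at 1339.5, 851, 278, 2397 and 1130.4 CPM (mean 1199 ± 779, SD, n = 5). With coconut oil, TAT ran from 355 to 1874 CPM around a median of 1038 (mean 1021 ± 555, SD, n = 6). The highest and the lowest TAT values of all 16 pigs, 2397 and 278 CPM, were both in beef tallow pigs, replicates 4 and 3, so the beef tallow range enclosed the other diets. TAT in beef tallow relative to rapeseed oil had a log2 fold change of 0.78 (SE 0.40, 95% CI -0.06 to 1.62, edgeR adjusted p = 0.366). Without beef tallow replicate 4 this fold change was 0.37 (adjusted p = 0.705), and without replicate 3 it was 1.03 (adjusted p = 0.0657). TAT in coconut oil differed by 0.54 from rapeseed oil and by -0.23 from beef tallow on the log2 scale (edgeR adjusted p = 0.518 and 0.877). The first of these was 0.28 without coconut oil replicate 3 and the second 0.18 without beef tallow replicate 4.

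HPD turns hydroxyphenylpyruvate into homogentisate (ENSSSCG00000009805, chromosome 14, 30845608 to 30857658). HPD was measured at 77.2, 60.5, 95.7, 109 and 70.8 CPM in the 5 rapeseed oil pigs (mean 82.7 ± 19.6, SD, n = 5). With beef tallow, HPD stood at 90.2, 56.2, 149.7, 82.9 and 140.5 CPM (mean 104 ± 39.8, SD, n = 5). With coconut oil, HPD ran from 37.2 to 77.1 CPM around a median of 66.3 (mean 64.4 ± 14.4, SD, n = 6). All 6 coconut oil pigs lay below the beef tallow mean, but the lowest beef tallow pig fell inside their range. HPD in coconut oil relative to beef tallow had a log2 fold change of -0.70 (SE 0.25, 95% CI -1.22 to -0.17, edgeR adjusted p = 0.302), equal to 0.617 times the beef tallow level. Without beef tallow replicate 3, whose HPD was the highest of the 16 pigs, the fold change was -0.52 (adjusted p = 0.461). HPD in beef tallow was 0.34 and in coconut oil -0.37 relative to rapeseed oil on the log2 scale (edgeR adjusted p = 0.574 and 0.447). HPD was therefore ordered coconut oil, rapeseed oil, beef tallow from low to high, with each neighbouring pair of diets overlapping.

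HGD opens the ring of homogentisate, the step that is lost in alkaptonuria (ENSSSCG00000021227, chromosome 13, 139660315 to 139710402). HGD was measured at 75, 52.3, 64.6, 55.6 and 39.3 CPM in the 5 rapeseed oil pigs (mean 57.4 ± 13.4, SD, n = 5). With beef tallow, HGD stood at 74.1, 97.6, 14.4, 58.4 and 95.1 CPM (mean 67.9 ± 33.9, SD, n = 5). With coconut oil, HGD ran from 23 to 119 CPM around a median of 86.9 (mean 80.2 ± 38.5, SD, n = 6). The low beef tallow value of 14.4 CPM was again replicate 3, and the coconut oil pigs held 3 values of 106 CPM or more and 3 of 68 CPM or less. HGD rested on 19 to 188 reads per pig, and its SD between pigs exceeded the counting error in each diet, with coefficients of variation of 23%, 50% and 48% against 14% from counting in groups R, B and C. HGD in coconut oil relative to rapeseed oil had a log2 fold change of 0.51 (SE 0.30, 95% CI -0.13 to 1.14, edgeR adjusted p = 0.508). HGD in beef tallow differed by 0.22 from rapeseed oil, or by 0.50 without beef tallow replicate 3 (edgeR adjusted p = 0.822 and 0.236). HGD in coconut oil differed from beef tallow by 0.29 on the log2 scale (edgeR adjusted p = 0.823).

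FAH splits fumarylacetoacetate into fumarate and acetoacetate, and its loss causes hereditary tyrosinaemia (ENSSSCG00000001780, chromosome 7, 49047833 to 49087790). FAH was measured at 185, 198, 156, 217 and 155 CPM in the 5 rapeseed oil pigs (mean 183 ± 26.8, SD, n = 5). With beef tallow, FAH stood at 157, 191, 198, 124 and 143 CPM (mean 163 ± 31.5, SD, n = 5). With coconut oil, FAH ran from 115 to 196 CPM around a median of 162 (mean 164 ± 29.1, SD, n = 6). FAH had the narrowest range of the 9 genes, with the highest pig at 1.89 times the lowest, and its diets lay on top of each other. FAH in coconut oil relative to beef tallow had a log2 fold change of 0.01 (SE 0.18, 95% CI -0.37 to 0.39, edgeR adjusted p = 0.992). FAH relative to rapeseed oil was -0.16 with beef tallow (95% CI -0.54 to 0.21) and -0.16 with coconut oil (95% CI -0.49 to 0.18) on the log2 scale, with edgeR adjusted p-values of 0.714 and 0.747.

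TDO2 opens tryptophan to formylkynurenine and is the entry step of the kynurenine route in liver (ENSSSCG00000008868, chromosome 8, 44708722 to 44725954). TDO2 was measured at 837, 1066, 1017, 709 and 799.5 CPM in the 5 rapeseed oil pigs (mean 886 ± 151, SD, n = 5). With beef tallow, TDO2 stood at 656, 853, 787, 1282 and 776 CPM (mean 871 ± 241, SD, n = 5). With coconut oil, TDO2 ran from 548 to 827 CPM around a median of 732 (mean 703 ± 118, SD, n = 6). One beef tallow pig, replicate 4, stood above all others at 1282 CPM, and the same pig held the highest TAT value. TDO2 in coconut oil relative to rapeseed oil had a log2 fold change of -0.34 (SE 0.16, 95% CI -0.67 to -0.01, edgeR adjusted p = 0.371), equal to 0.790 times the rapeseed oil level. TDO2 in beef tallow relative to rapeseed oil was -0.02 (95% CI -0.44 to 0.39, edgeR adjusted p = 0.969), a sign that turned in 5 of the 10 fits without 1 pig. TDO2 in coconut oil relative to beef tallow was -0.31 on the log2 scale (edgeR adjusted p = 0.539). TDO2 also correlated with the number of reads on genes over the 16 pigs, with a Pearson r of -0.63 (adjusted permutation p = 0.145) and a Spearman rho of -0.63 (adjusted permutation p = 0.0955) over 18 relations (each of the 9 genes with the reads on genes and with the share of multi-mapped reads). Without the 2 pigs farthest from the median depth the r was -0.36, weaker but of the same sign. These 2 pigs were coconut oil replicates 5 and 6, which also held the 2 lowest TDO2 values of the 16 pigs, 548 and 575 CPM. The part of depth in the TDO2 diet values was not tested.

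AFMID removes the formyl group to release kynurenine (ENSSSCG00000033636, chromosome 12, 3759688 to 3785829). AFMID was measured at 263, 66.7, 91.8, 59.8 and 117 CPM in the 5 rapeseed oil pigs (mean 119.7 ± 83.4, SD, n = 5). With beef tallow, AFMID stood at 163, 154, 181, 82.9 and 285 CPM (mean 173 ± 73, SD, n = 5). With coconut oil, AFMID ran from 16.7 to 161 CPM around a median of 80.2 (mean 82.2 ± 48.3, SD, n = 6). AFMID spanned 17.1-fold over the 16 pigs, the widest range of the 9 genes, from 19 reads in coconut oil replicate 2 to 358 reads in rapeseed oil replicate 1. AFMID in coconut oil relative to beef tallow had a log2 fold change of -1.05 (SE 0.38, 95% CI -1.86 to -0.24, edgeR adjusted p = 0.318), equal to 0.483 times the beef tallow level and the largest fold change among the 9 genes. Leaving out each pig moved this AFMID value between -1.37 and -0.81. AFMID in beef tallow relative to rapeseed oil had a log2 fold change of 0.52 (SE 0.37, 95% CI -0.27 to 1.31, edgeR adjusted p = 0.550), and 1.05 (adjusted p = 0.159) without rapeseed oil replicate 1, the pig far above the other rapeseed oil pigs. AFMID in coconut oil relative to rapeseed oil was -0.54, and 0.00 without that pig (edgeR adjusted p = 0.643 and 0.999).

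KMO hydroxylates kynurenine in the outer mitochondrial membrane (ENSSSCG00000025686, chromosome 10, 12442877 to 12489417). KMO was measured at 382, 237, 295, 312 and 257 CPM in the 5 rapeseed oil pigs (mean 296 ± 56.2, SD, n = 5). With beef tallow, KMO stood at 346, 293, 219.9, 307 and 334 CPM (mean 299.99 ± 49.5, SD, n = 5). With coconut oil, KMO ran from 317 to 442 CPM around a median of 395 (mean 387 ± 48.9, SD, n = 6). KMO in coconut oil exceeded the medians of both other diets in all 6 pigs, while the highest rapeseed oil pig and 2 of the beef tallow pigs reached into the coconut oil range. KMO in coconut oil relative to rapeseed oil had a log2 fold change of 0.38 (SE 0.15, 95% CI 0.06 to 0.70, edgeR adjusted p = 0.299), equal to 1.30 times the rapeseed oil level. KMO in coconut oil relative to beef tallow had a log2 fold change of 0.37 (SE 0.16, 95% CI 0.04 to 0.71, edgeR adjusted p = 0.398). KMO in beef tallow relative to rapeseed oil was 0.01 (95% CI -0.37 to 0.40, edgeR adjusted p = 0.984), and this sign turned in 4 of the 10 fits without 1 pig. RefSeq places a long noncoding RNA gene over 1 end of KMO, and since the strand setting of the counting was not stated, reads of the 2 genes may not have been told apart.

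KYNU cleaves hydroxykynurenine to hydroxyanthranilate and was the least covered of the 9, with 16 to 55 reads per pig (ENSSSCG00000015673, chromosome 15, 8847335 to 8982951). KYNU was measured at 24.3, 30.8, 34.9, 20.6 and 41.3 CPM in the 5 rapeseed oil pigs (mean 30.4 ± 8.26, SD, n = 5). With beef tallow, KYNU stood at 25.2, 23.3, 10.5, 43.6 and 31 CPM (mean 26.7 ± 12, SD, n = 5). With coconut oil, KYNU ran from 28.2 to 50.9 CPM around a median of 32.2 (mean 36.2 ± 9.50, SD, n = 6). Its coefficients of variation of 27.2, 45 and 26.3% stood beside 18.7, 19.9 and 16% expected from counting alone in groups R, B and C, with the widest gap between the 2 in beef tallow. KYNU in coconut oil relative to beef tallow had a log2 fold change of 0.44 (SE 0.29, 95% CI -0.17 to 1.06, edgeR adjusted p = 0.576). KYNU in beef tallow and in coconut oil relative to rapeseed oil was -0.21 and 0.23 on the log2 scale (edgeR adjusted p = 0.813 and 0.741). The lowest KYNU value, 10.5 CPM, was beef tallow replicate 3, and without it the difference from rapeseed oil was 0.02.

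HAAO opens hydroxyanthranilate on the way to quinolinate and NAD (ENSSSCG00000038660, chromosome 3, 97580756 to 97595033). HAAO was measured at 1276, 443, 684, 559 and 711 CPM in the 5 rapeseed oil pigs (mean 735 ± 321, SD, n = 5). With beef tallow, HAAO stood at 291, 486, 427, 199.7 and 608 CPM (mean 402 ± 161, SD, n = 5). With coconut oil, HAAO ran from 464 to 942 CPM around a median of 579 (mean 656 ± 207, SD, n = 6). The 2 lowest HAAO values of the 16 pigs were beef tallow replicates 4 and 1, and the highest was rapeseed oil replicate 1 at 1276 CPM. HAAO in beef tallow relative to rapeseed oil had a log2 fold change of -0.87 (SE 0.30, 95% CI -1.51 to -0.23, edgeR adjusted p = 0.174), which was 0.547 times the rapeseed oil level. HAAO without rapeseed oil replicate 1 was -0.57 in this pair (adjusted p = 0.416), and with no filter on low counts it passed the threshold at -0.90 (adjusted p = 0.0221). HAAO in coconut oil relative to beef tallow had a log2 fold change of 0.71 (SE 0.27, 95% CI 0.14 to 1.28, edgeR adjusted p = 0.343). HAAO in coconut oil relative to rapeseed oil was -0.18 (edgeR adjusted p = 0.820), turning to 0.13 without rapeseed oil replicate 1. HAAO was thus lowest with beef tallow in both pairs that hold it, and the same 5 beef tallow pigs serve both.

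**Figure D2:**
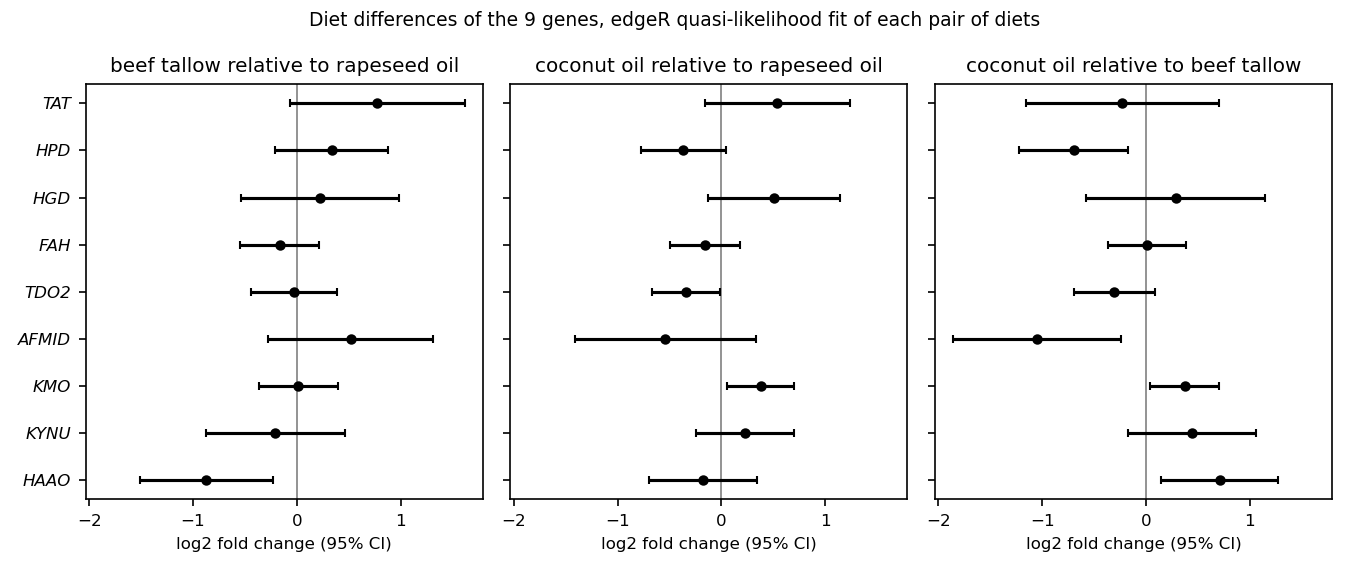
Log2 fold changes (horizontal axis) of the 9 genes (vertical axis) in the 3 pairs of diets, as points with 95% confidence intervals from edgeR's quasi-likelihood fits. The unadjusted intervals of HAAO (beef tallow relative to rapeseed oil), KMO and TDO2 (coconut oil relative to rapeseed oil) and HPD, AFMID, KMO and HAAO (coconut oil relative to beef tallow) leave out 0, and none of these passed after adjustment.

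Over the 3 diets together, the edgeR test with both diet terms gave 0 of 9 genes past an adjusted p of 0.05, where 0.711% of 6891 genes passed. HAAO had the smallest adjusted p (0.216), followed by HPD (0.237) and KMO (0.273), and these 3 were past an unadjusted p of 0.05, as were 15.9% of all genes. DESeq2 was not run for this test. The 4 tyrosine genes did not share an order of diets. By mean CPM, with no neighbouring diets differing past the test, TAT was lowest with rapeseed oil, HPD with coconut oil, HGD with rapeseed oil and FAH with beef tallow. Of the 5 tryptophan genes, TDO2 and AFMID were lowest with coconut oil, KMO with rapeseed oil, and KYNU and HAAO with beef tallow. The median log2 fold change of the 9 genes was 0.01 in beef tallow relative to rapeseed oil, -0.16 in coconut oil relative to rapeseed oil and 0.01 in coconut oil relative to beef tallow. Over all genes tested these medians lay between -0.00451 and 0.0112, and in the 3 pairs 5, 4 and 5 of the 9 genes had a positive fold change.

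Pigs of 1 diet differed far more in some steps than in others. The biological coefficient of variation, edgeR's estimate of the spread between pigs of a diet beyond read counting, was 47.2% for AFMID, 46.9% for TAT and 42% for HGD. These 3 genes lay at percentiles 97.7, 97.6 and 95.7 of the 6891 genes, whose median was 23.2%. HAAO was at 33%, at percentile 86.2. KYNU (28%), HPD (26.5%) and TDO2 (22%) lay nearer the middle, and FAH (19.6%) and KMO (19.5%) were below the median gene. Of the 3 with the widest spread, TAT had the most reads of the 9 genes, while HGD had the fewest after KYNU. Beef tallow replicate 3 held the extreme value of the 16 pigs in 5 of the 9 genes, as the lowest for TAT, HGD, KMO and KYNU and the highest for HPD. Its share over all genes was 32.9%. Multi-mapped reads made up 33.2% of its reads, below the 38.1% of coconut oil replicate 3, which held extreme values in 18.7% of all genes. A link between these shares was not tested.

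**Figure D3:**
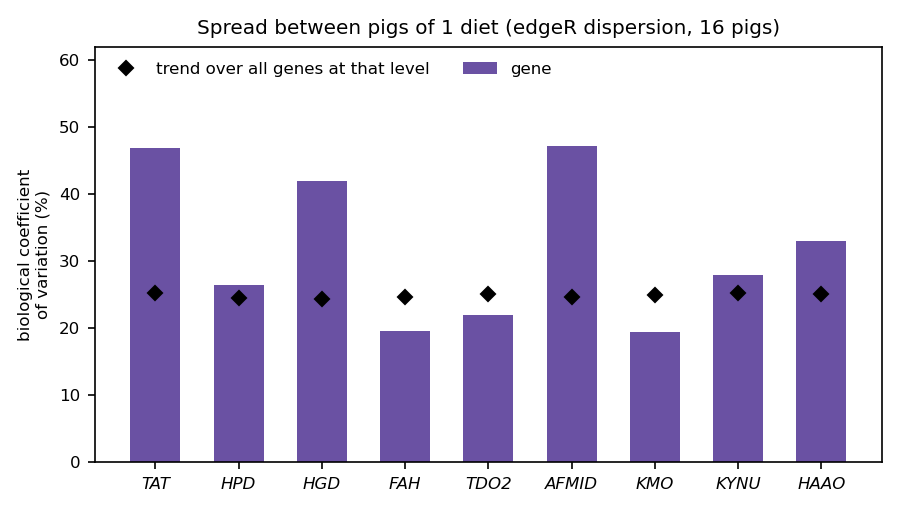
Biological coefficient of variation between pigs of 1 diet (vertical axis, %) for each gene (bars) beside edgeR's trend for genes of that abundance (diamonds). AFMID, TAT and HGD stand at 42 to 47.2% against a trend of 24.4 to 25.2%, while KMO, FAH and TDO2 lie below it.

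The steps were then compared from pig to pig. Over the 16 pigs, 36 pairs of the 9 genes were compared on log2 CPM, and 0 passed a Benjamini-Hochberg adjusted permutation p of 0.05, while 4 were past 0.05 before adjustment. Pearson's r ran from -0.58 for FAH and KYNU (Spearman's rho -0.73, adjusted permutation p = 0.394 for r and 0.0691 for rho) to 0.51 for TAT and KMO (adjusted permutation p = 0.394 for r and 0.622 for rho). HPD and KYNU followed at -0.53 and HGD and KMO at 0.51. Without beef tallow replicate 3 the r was -0.59 for FAH and KYNU, 0.35 for TAT and KMO, -0.27 for HPD and KYNU and 0.26 for HGD and KMO. TAT, the entry to tyrosine oxidation, correlated at 0.22 with TDO2, the entry to tryptophan oxidation. Counts of 0 past the adjusted threshold were also found on deviations from the diet means, without the 2 farthest pigs, after RLE normalization and without beef tallow replicate 3. HGD correlated with the share of multi-mapped reads over the same 18 relations (r = -0.60, adjusted permutation p = 0.146, rho = -0.74, adjusted permutation p = 0.0270), and without the 2 pigs farthest from the median share the r was -0.53. The part of this library property in the HGD values was not tested.

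**Figure D4:**
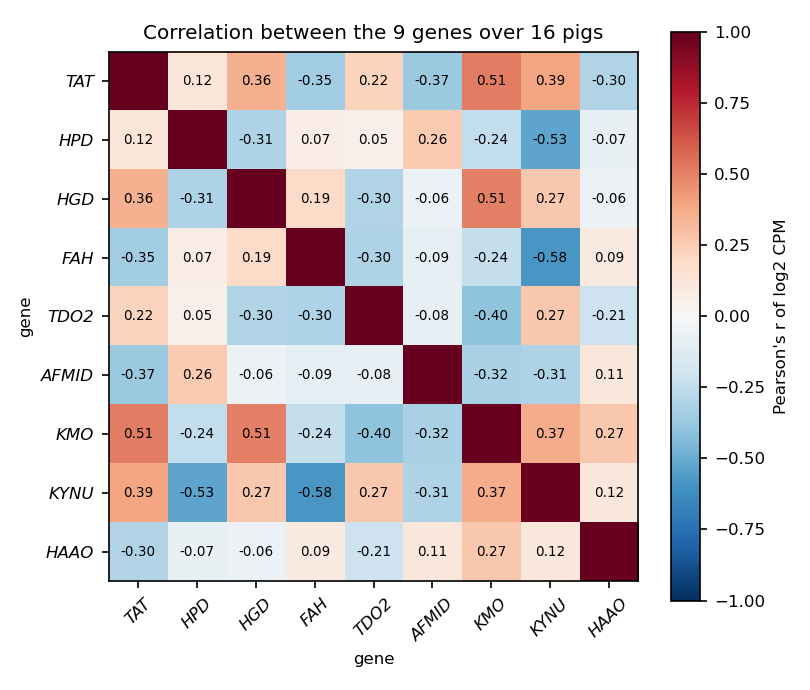
Pearson's r of log2 CPM over the 16 pigs for each pair of the 9 genes (both axes), from -1 in blue to 1 in red. The values run from -0.58 (FAH and KYNU) to 0.51 (TAT and KMO), and none passed after adjustment over the 36 pairs.

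The gene most like TAT over the 16 pigs, among 6048 tested genes with a symbol, was CEBPB, a liver transcription factor that also belongs to the list of regulators given below. TAT and CEBPB had an r of 0.87 (rho 0.85) on log2 CPM, 0.83 without beef tallow replicate 3 and 0.90 on deviations from the diet means. CEBPB was measured at 168, 155, 177, 219 and 99.3 CPM in the rapeseed oil pigs in the order used for TAT. With beef tallow it stood at 306, 159, 42.7, 328 and 177 CPM, and with coconut oil between 59.9 and 323 CPM with a median of 170.1. The pig lowest for TAT was also the lowest for CEBPB, and the highest the highest. CEBPB itself did not pass the test in any pair, with log2 fold changes of 0.30, 0.16 and -0.13 in the 3 pairs (edgeR adjusted p = 0.759, 0.875 and 0.933). The next most like TAT were FAM91A1 and TOR1AIP1, both at an r of 0.87. These values come from a search over all genes and are given as a description, and the points share library, depth and diet.

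**Figure D5:**
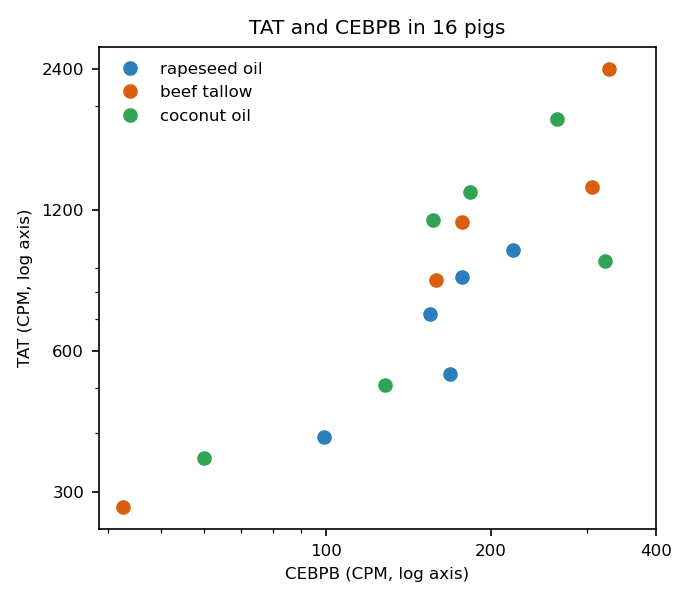
CPM of TAT (vertical log axis) against CPM of CEBPB (horizontal log axis) in the 16 pigs, coloured by diet. The points rise from 42.7 CPM of CEBPB and 278 CPM of TAT to 328 and 2397 CPM, both ends being beef tallow pigs, with the 3 diets mixed along the way.

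For 7 of the other genes, the closest matches by r were AKT1S1 (0.82) for HPD, MAPKAPK5 (0.87) for HGD and TLE5 (0.89) for TDO2. AFMID was closest to ASRGL1 (0.79), KMO to SLC35A2 (0.81), KYNU to TIPRL (0.81) and HAAO to OSBPL9 (0.84). None of these best matches was another of the 9 genes. Without beef tallow replicate 3 the KYNU match had an r of 0.56 and the HGD match of 0.77.

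Gilts and barrows were compared regardless of diet, 8 against 8. Of the 9 genes, 0 passed an edgeR adjusted p of 0.05, where 0.0786% of 6365 genes did, and 0 passed an unadjusted p of 0.05 against 4.02% of all genes, and DESeq2 counted 0 of 9 on both scales. TAT was at 824 ± 549 CPM in gilts and 1128 ± 582 CPM in barrows (SD, n = 8 each), a log2 fold change of 0.45 in barrows (SE 0.35, edgeR adjusted p = 0.998). FAH was at 183 ± 22.4 CPM in gilts and 155 ± 28.7 CPM in barrows (SD, n = 8 each), a log2 fold change of -0.24 in barrows (SE 0.14, edgeR adjusted p = 0.998). The other 7 genes lay between -0.20 (AFMID) and 0.25 (HGD) on the log2 scale. The interaction of diet and sex passed the edgeR test for 0 of the 9 genes and for 0% of all genes in each pair of diets. At an unadjusted p under 0.05 it counted 0 of 9 between rapeseed oil and beef tallow, where 3.96% of all genes were counted. KYNU alone was counted in the other two pairs, where 3.98% (rapeseed oil and coconut oil) and 3.52% (beef tallow and coconut oil) of all genes were. DESeq2 was not run for the interaction.

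Other genes of the 2 routes were read from lists assembled around them. Of 10 listed partners of phenylalanine and tyrosine, 9 were found and 6 passed the filter, with 0 past an adjusted p of 0.05 in any pair. IL4I1 and HPDL had 0 reads. GSTZ1, which isomerises maleylacetoacetate between the HGD and FAH steps, was measured at 359, 233, 235, 250.3 and 259.6 CPM with rapeseed oil. With beef tallow GSTZ1 stood at 186, 204, 252, 139 and 152 CPM, and with coconut oil between 165 and 212 CPM with a median of 199. All 5 rapeseed oil pigs lay above all 6 coconut oil pigs for GSTZ1, and 1.46% of all genes tested separated these 2 diets without overlap. For GSTZ1, 1 beef tallow pig reached into the rapeseed oil range. GSTZ1 had log2 fold changes of -0.52 (SE 0.20, edgeR adjusted p = 0.212) with beef tallow and -0.46 (SE 0.15, edgeR adjusted p = 0.206) with coconut oil relative to rapeseed oil. PCBD1, which recycles tetrahydrobiopterin, had the smallest p of the list in coconut oil relative to beef tallow, at 0.33 (edgeR adjusted p = 0.471). The median log2 fold change of this list was -0.15, -0.07 and 0.07 in the 3 pairs.

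Tetrahydrobiopterin, a cofactor of aromatic amino acid hydroxylases, is made from GTP by GCH1, PTS and SPR. All 3 were found and tested, of 5 listed, and 0 passed. GCH1, the first step, was measured at 11.8, 21.5, 16.8, 15.5 and 10.8 CPM with rapeseed oil and at 18.3, 34, 7.88, 71.2 and 24.3 CPM with beef tallow. GCH1 was highest in beef tallow replicate 4 and lowest in beef tallow replicate 3, so the diets overlapped. GCH1 in beef tallow relative to rapeseed oil had a log2 fold change of 1.00 (SE 0.45, 95% CI 0.04 to 1.95, edgeR adjusted p = 0.306), and in coconut oil relative to rapeseed oil 0.61 (edgeR adjusted p = 0.419). Without beef tallow replicate 4 the first GCH1 value was 0.44 (edgeR adjusted p = 0.648), and without coconut oil replicate 6 the second was 0.37 (edgeR adjusted p = 0.743). SPR in coconut oil relative to beef tallow was 0.41 (edgeR adjusted p = 0.513).

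Of 11 listed partners of tryptophan, 9 were found and 5 tested, with 0 past the adjusted threshold. IDO1, the interferon-induced enzyme that opens tryptophan outside the liver, had 3 reads in all 16 pigs and IDO2 25, beside 14097 of TDO2, so nearly all reads of these 3 ring-opening enzymes were of TDO2. AADAT, which makes kynurenic acid, had 3 reads, and ACMSD, which diverts the route from NAD to oxidation, 26. QPRT, which turns quinolinate into the NAD precursor, stood at 105 ± 28.2, 86.5 ± 16.2 and 82.8 ± 10.1 CPM in groups R, B and C (SD, n = 5, 5 and 6). Kynurenine aminotransferase KYAT3 was measured at 61.1, 50.3, 46.5, 46.4 and 47.2 CPM with rapeseed oil and at 41.3, 19.1, 31.5, 35.1 and 28.8 CPM with beef tallow. These 2 diets did not overlap for KYAT3, as for 4.57% of all genes tested. Its coconut oil values, 17.8 to 54 CPM around a median of 34.1, reached into both. KYAT3 in beef tallow relative to rapeseed oil had a log2 fold change of -0.69 (SE 0.21, 95% CI -1.14 to -0.23, edgeR adjusted p = 0.134), and in coconut oil relative to rapeseed oil -0.57 (edgeR adjusted p = 0.272). ALDH8A1, an aldehyde dehydrogenase of the same route, was -0.55 in coconut oil relative to beef tallow (edgeR adjusted p = 0.436). The list's median log2 fold change was -0.27, -0.35 and -0.07 in the 3 pairs.

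Carbon that leaves the kynurenine route runs through glutaryl-CoA to acetyl-CoA. All 7 listed genes were found and 6 tested, with 0 past the adjusted threshold and medians of -0.26, 0.08 and 0.23 on the log2 scale in the 3 pairs. GCDH, which oxidises glutaryl-CoA, was measured at 58.1, 32.8, 64.6, 35 and 41.3 CPM with rapeseed oil and at 32.1, 26.5, 30.9, 29.7 and 38.7 CPM with beef tallow. Its coconut oil values ran from 26.6 to 77.1 CPM with a median of 47.8, and the beef tallow pigs were the tightest and lowest group, with their highest pigs inside the range of both others. GCDH had log2 fold changes of -0.55 (SE 0.23, edgeR adjusted p = 0.259) in beef tallow relative to rapeseed oil and 0.64 (SE 0.23, edgeR adjusted p = 0.318) in coconut oil relative to beef tallow. HADH, a later dehydrogenase, was -0.19 in coconut oil relative to rapeseed oil (edgeR adjusted p = 0.636).

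NAD synthesis held the only gene of these lists past the adjusted threshold. It passed between rapeseed oil and beef tallow, as did 1.11% of the 6318 genes tested in that pair. Of 8 listed genes 7 were found and 6 tested. NMRK1, a kinase that makes the NAD precursor from nicotinamide riboside and so bypasses the tryptophan route, was measured at 64, 49.2, 60.8, 54.6 and 50.2 CPM with rapeseed oil. With beef tallow NMRK1 stood at 31.3, 23.3, 32.2, 39.3 and 18.8 CPM, and with coconut oil between 28.3 and 52.6 CPM with a median of 38.6. Every rapeseed oil pig was above every beef tallow pig. NMRK1 fell in beef tallow relative to rapeseed oil by 0.93 on the log2 scale (SE 0.21, 95% CI -1.39 to -0.48, edgeR adjusted p = 0.0454), resting on 17 to 87 reads per pig. The NMRK1 call was lost with sex as a covariate (adjusted p = 0.0578), after thinning to the smallest library (0.183) and in 9 of the 10 fits without 1 pig, whose adjusted p ran from 0.0308 to 0.124. In coconut oil NMRK1 was -0.47 relative to rapeseed oil (edgeR adjusted p = 0.273). NNMT, which methylates nicotinamide out of the NAD pool, was -0.98 in coconut oil relative to beef tallow (SE 0.33, edgeR adjusted p = 0.295), with beef tallow values of 1074, 567, 237, 1155 and 623 CPM against a coconut oil range of 189 to 524 CPM. The median log2 fold change of the 6 genes was -0.05, -0.17 and -0.06 in the 3 pairs.

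Of 6 listed amino acid transporters, 6 were found and 2 tested (SLC16A10 and SLC38A4), with 0 past the adjusted threshold. SLC3A2, the heavy chain of the main exchanger, had 0 reads and SLC7A5, its light chain, 9 in all. SLC16A10, which carries tyrosine and tryptophan across the membrane, was measured at 8.83, 16.4, 12.9, 13.4 and 8.85 CPM with rapeseed oil and at 29.8, 21.2, 14.4, 46.7 and 29.9 CPM with beef tallow. Only the lowest beef tallow pig, replicate 3, overlapped the rapeseed oil range for SLC16A10. SLC16A10 in beef tallow relative to rapeseed oil had a log2 fold change of 1.22 (SE 0.32, 95% CI 0.54 to 1.91, edgeR adjusted p = 0.0818), on 9 to 44 reads per pig. SLC16A10 passed with DESeq2 (adjusted p = 0.0354), with no filter on low counts (0.0263) and without beef tallow replicate 3 (1.41, adjusted p = 0.0233). Not all fits passed. The adjusted p of SLC16A10 reached 0.322 among the 7 other edgeR and DESeq2 settings. It reached 0.185 among the 10 edgeR fits without 1 pig. In coconut oil it was 0.48 relative to rapeseed oil and -0.75 relative to beef tallow (edgeR adjusted p = 0.580 and 0.423).

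Regulators of TAT and TDO2 transcription, with the glucocorticoid receptor NR3C1 and the liver factors among them, were all 11 found and 8 tested, with 0 past the adjusted threshold and medians of 0.34, 0.11 and -0.12 on the log2 scale. PPARGC1A, a fasting coactivator, was 0.58 with beef tallow (SE 0.21, edgeR adjusted p = 0.196) and 0.62 with coconut oil (SE 0.23, edgeR adjusted p = 0.269) relative to rapeseed oil. NR3C1 stood at 86.3 ± 11.6, 74.1 ± 5.65 and 68.6 ± 19.1 CPM in groups R, B and C (SD, n = 5, 5 and 6). HSD11B1, which regenerates glucocorticoid in liver, was 0.25 in coconut oil relative to beef tallow (edgeR adjusted p = 0.598). Kynurenines are ligands of the aryl hydrocarbon receptor AHR. Of the 8 genes listed for AHR and its targets, all were found and 5, 5 and 6 tested in the 3 pairs. Of those tested 0 passed, where 1.11%, 0.138% and 0.0587% of all genes did. AHR stood at 37.2 ± 10.4, 25.7 ± 6.37 and 24.2 ± 9.46 CPM in groups R, B and C, with log2 fold changes of -0.53 and -0.63 relative to rapeseed oil (edgeR adjusted p = 0.346 and 0.307). CYP1A1, its best known target, was 0.47 in coconut oil relative to beef tallow (edgeR adjusted p = 0.633).

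In bulk liver, fewer cells of a type and less RNA per cell cannot be told apart, so markers of cell types were read beside the 9 genes. Macrophages also express KMO and KYNU. Summed over 7 macrophage markers, all with reads, the range was 598 to 1121 CPM with rapeseed oil, 823 to 1654 with beef tallow and 585 to 850.2 with coconut oil. CD163, a macrophage scavenger receptor, rose in beef tallow relative to rapeseed oil by 0.79 on the log2 scale (edgeR adjusted p = 0.0414). Of the 6 macrophage markers tested in this pair, 5 were positive and 1 negative, with a median of 0.25. In coconut oil relative to beef tallow, 1 was positive and 5 negative, with a median of -0.55 and 0 past the adjusted threshold. In beef tallow relative to rapeseed oil, HAL, the periportal enzyme of histidine breakdown, rose by 1.39 (edgeR adjusted p = 0.0305). TTR, a plasma protein of hepatocytes, fell by 0.78 (edgeR adjusted p = 0.0426) in the same pair, where 1.11% of the 6318 genes tested passed. The 7 hepatocyte markers tested in this pair went both ways, 3 positive and 4 negative, with a median of -0.10 on the log2 scale. CPS1, a urea cycle enzyme on the hepatocyte and periportal lists that was picked after its values were seen, was at 0.83 (edgeR adjusted p = 0.0627), with 167 to 273 CPM with rapeseed oil and 339 to 622 CPM with beef tallow. Periportal markers summed to 4914 to 8895, 6007 to 9584 and 5498 to 8552 CPM in groups R, B and C (6 of 6 found). ASS1 (mean 4410 CPM) and PCK1 (mean 2092 CPM) made up most of this sum. Of the 5 periportal markers tested, 4, 5 and 2 were positive in the 3 pairs, with median log2 fold changes of 0.83, 0.21 and -0.59. Pericentral markers summed to 1739.6 to 3113, 1643 to 2309 and 1542 to 2662 CPM (5 of 6 found). Of the 3 tested, 1, 2 and 3 were positive, with medians of -0.11, 0.02 and 0.13. Of the endothelial, stellate, lymphocyte and erythroid lists, 3, 4, 1 and 2 genes were tested in each pair, with 0 past the adjusted threshold. Over all genes 1.11%, 0.138% and 0.0587% passed in the 3 pairs, so 0 of so few genes says little about these cells. The 3 bile duct markers found summed to at most 19.6 CPM. The sums of each list overlapped between all 3 diets. The part of these markers in the values of the 9 genes was not tested.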

How the data were processed

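Liver 3′ mRNA-seq libraries of 16 pigs were analysed, grouped by the diet in their labels. According to the methods and labels, the authors checked reads with FastQC, mapped them with TopHat to the pig genome Sscrofa11.1 and counted them per gene with HTSeq, and the deposited values are raw read counts for 25880 genes. The strand setting was not stated, and the 5 tallies of reads on no gene were used only for shares of reads. Labels and methods name different RNA extraction kits, and 1 sentence of the methods names subcutaneous fat as the sampled tissue where the labels name liver.

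Each pair of diets was fitted alone, without covariates, by the quasi-likelihood test of edgeR 4.0.16 (R 4.3.3) with TMM normalization and filterByExpr (minimum count 10, minimum total 15). P-values were adjusted by Benjamini-Hochberg over all genes tested, with a threshold of 0.05. In each pair the first diet was the reference, and the standard error is the log2 fold change divided by the square root of F. All 3 diets together, gilts against barrows (gilts as the reference) and the diet by sex interaction were tested in the same way. CPM were counts per 1000000 reads on the genes that passed the filter over all diets, after TMM. Correlations used log2 CPM (prior count 2) and 100000 two-sided permutations. Labels show separate pigs as replicates, and 0 of 120 pairs of libraries were identical.

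The alternatives tried were DESeq2 1.42.0, RLE in place of TMM, dropping the filter, requiring at least 10 reads in each library, 1 joint fit, covariates for sex or diet, a block for the replicate number, libraries thinned to the smallest, and each pig left out. On simulated data, 97 to 99% of 4-fold changes and 42 to 62% of 2-fold changes were recovered, and 3.29 to 4.73% of calls were false.

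All 9 genes are named in every comparison. From each related list, genes past the threshold and the gene with the smallest p in each pair are named, together with the 3 genes most like TAT and the closest match of each other gene by r. QPRT, NR3C1, CEBPB, MAOB and ACAT1, genes given only by their reads, and the markers past the threshold are named in addition. The members and lists were chosen with earlier results of these data known. Some genes that this rule names are not reported here. No sequence was read, since no sequence table was used here.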

Additional observations from a re-analysis of the deposited data

Results flagged for a closer look

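Of 27 sets of values, the 9 genes in each of the 3 diets, 2 held a pig far from the others of its diet by Dixon's criterion at the 95% level, which chance meets in about 1 of 20 sets. HPD in coconut oil replicate 1 was the lowest of 6 pigs at 37.2 CPM, with the next at 64.2 CPM. AFMID in rapeseed oil replicate 1 was the highest of 5 pigs at 263 CPM, with the next at 117 CPM, and this pig also held the highest HAAO value of all 16.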

How the results depend on the processing

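For the 9 genes, 151 of 162 alternative fold changes between rapeseed oil and beef tallow, 169 of 171 between rapeseed oil and coconut oil, 164 of 171 between beef tallow and coconut oil and 36 of 36 between the sexes kept their direction and their side of the threshold. The exception past the threshold was HAAO between rapeseed oil and beef tallow with no filter on low counts, which made 1 gene called in place of 0, at -0.90 (edgeR adjusted p = 0.0221), against 0.0976 with DESeq2 and a range of 0.143 to 0.416 with each pig left out. The cause was not tested. With each pig left out, the log2 fold change between rapeseed oil and beef tallow ran from -0.20 to 0.0621 for TDO2, from -0.0556 to 0.13 for KMO and from -0.45 to 0.0197 for KYNU, the last without beef tallow replicate 3. Between rapeseed oil and coconut oil it ran from -0.85 to 0.00113 for AFMID and from -0.31 to 0.13 for HAAO, both upper values without rapeseed oil replicate 1. Between beef tallow and coconut oil it ran from -0.50 to 0.18 for TAT, the latter without beef tallow replicate 4, and from -0.0714 to 0.0947 for FAH, which was also -0.00175 with at least 10 reads in every pig.

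Counts over all genes moved more. The 70 genes called between rapeseed oil and beef tallow became 188 with DESeq2, 190 with no filter and 26 after thinning, and 9 to 149 with each pig left out, the latter without beef tallow replicate 3. The 9 genes between rapeseed oil and coconut oil became 93 with DESeq2, 82 with no filter, 14 with at least 10 reads in every pig, 4 after thinning and 3 to 27 with each pig left out. The 4 genes between beef tallow and coconut oil became 53 with DESeq2, 22 with no filter, 8 with all 16 pigs in 1 fit and 4 to 9 with each pig left out. The 49 genes over 3 diets became 190 with no filter and 15 to 96 with each pig left out, and the 5 genes between the sexes became 11 with DESeq2 and 10 with no filter. The replicate number as a block gave 35 genes between rapeseed oil and beef tallow and called 0 of the 9 genes in each pair, and it lost NMRK1 (edgeR adjusted p = 0.0801). Only 2 of 15 pairs of same-numbered pigs correlated above 0.1 (median 0.05). Differently numbered pairs were not computed for comparison, so this cannot decide whether the numbers stand for a shared factor.

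KYNU had the fewest reads, 16 to 55 per pig, and HGD, HPD and AFMID the next fewest in all. HGD and AFMID also varied widely between pigs beyond read counting, with biological coefficients of variation of 42% and 47.2%. The pigs per diet allow 2-fold changes to be missed.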

Other observations

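2 further genes of the lists were looked at after their values were seen. MAOB, a mitochondrial amine oxidase that also acts on tryptamine, stood at 1683 ± 143 CPM with rapeseed oil (SD, n = 5), 1269 ± 249 with beef tallow (SD, n = 5) and 1373 ± 286 with coconut oil (SD, n = 6). Its log2 fold change in beef tallow relative to rapeseed oil was -0.41 (edgeR adjusted p = 0.261), and the diets overlapped. ACAT1, the thiolase at the end of the glutaryl-CoA branch, stood at 466.4 ± 44.3 CPM with rapeseed oil, 294 ± 126 with beef tallow and 466.2 ± 151 with coconut oil (SD, n = 5, 5 and 6). Its lowest values were 78.1 CPM in beef tallow replicate 3 and 187 CPM in coconut oil replicate 1. ACAT1 differed by -0.67 in beef tallow relative to rapeseed oil and by 0.67 in coconut oil relative to beef tallow on the log2 scale (edgeR adjusted p = 0.306 and 0.464).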
